A study of Mus musculus with 12 samples.

Results

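Genes that were expressed in 11 of 12 clones of mouse granulocyte-monocyte progenitors and nearly silent in the remaining clone were described across both genotypes. The members were chosen by their measured levels in CPM, the count of a gene scaled to the sum of gene counts in its library. A gene had to lie outside the Y chromosome and reach 5 CPM or more in exactly 11 clones. In the remaining clone, called its silent clone here, it had to be at 10% or less of the lowest of those 11. The rule selected 37 genes out of 8836 that lay outside the Y chromosome and reached 5 CPM in at least 11 clones, or 0.419%. The depth of the fall in the silent clone is what selected the genes, so it is given as a description with no test. "Silent" refers to these counts only. Whether the gene was intact in the genome of that clone was not measured.

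The clones were 6 Taz knockout clones (3G, 3H and 3I under title number 3, and 4J, 4K and 4L under number 4) and 6 wildtype clones (1A, 1B and 1C under number 1, and 2D, 2E and 2F under number 2). Taz is the older symbol of Tafazzin, an X-linked enzyme that remodels the mitochondrial phospholipid cardiolipin. All clones descended from fetal liver progenitors of C57BL/6 embryos at day 15.5. Each was grown from a single cell carrying a retroviral ER-Hoxb8 fusion. This protein holds progenitors in an immature, dividing state while estradiol is present. Estradiol at 0.5 µM and stem cell factor, equivalent to about 50 ng/ml of the recombinant protein, were in the medium of both genotypes. RNA was extracted from bulk cultures of each clone. The labels do not say what the title numbers 1 to 4 stand for, and each number covers 3 clones of 1 genotype. If a number marks an embryo or a parent line, the clones that share it are not independent.

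The 12 libraries held between 18970252 and 27431544 counts in genes. Taz itself ran from 2.21 to 4.09 CPM in knockout clones, against 36.8 to 44.4 CPM in wildtype clones. Ddx3y, Eif2s3y and Kdm5d, all on the Y chromosome, were at 40.9 CPM or more in every clone. Uty, a further Y-linked gene and so outside the rule, was at 0.728 CPM in 1C, against 47.2 to 64.7 CPM in the others. An X-linked gene is normally present as a single copy in cells with a Y chromosome. All 9 measured progenitor markers were detected in every clone, with a sum between 11594 and 21583 CPM. Wildtype clone 2D stood apart. Its 7 mature neutrophil markers summed to 1433 CPM, against 7.86 to 133 CPM in the other 11 clones, and its 6 lymphoid markers summed to 62.3 CPM, against 1.87 to 25.1 CPM. Its mast cell and basophil markers had the lowest sum, 1565 CPM, against 1842 CPM in 1A and 2768 to 5527 CPM in the other 10 clones. Clone 2D is also the clone with the most silent genes. In these bulk samples fewer cells of a type and less RNA per cell cannot be told apart. The part of these marker levels in its falls was not tested, and values without the genes silent in 2D are given beside the X share, the spread over clones, the neighbours, the relatives and the promoters.

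Cells of a clone share the state of the cell that founded it. A gene's state can be passed on at cell division through its chromatin and the methylation of its promoter. Many promoters of broadly expressed genes are rich in CpG, the dinucleotide at which mammalian DNA is methylated, while promoters of genes with restricted expression are more often poor in it. An X-linked gene in a male cell has no other copy on which expression could continue. For an autosomal gene both copies would have to be inactive, or only one of them active to begin with.

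Promoter windows of 6 members are printed because they span the range from CpG-rich to CpG-poor among genes with very deep falls. Each window runs 5′ to 3′ on the strand of the gene, from 250 bases before to 50 bases after the RefSeq start, and capitals mark CG dinucleotides. The coordinates are of build GRCm38.p6. They are chr3:94412994-94413293 (plus strand) for Tdrkh, chr17:65772703-65773002 (minus strand) for Rab31, chr2:118861744-118862043 (plus strand) for Ivd, chrX:9662934-9663233 (minus strand) for Dynlt3, chr2:84476710-84477009 (minus strand) for Tfpi and chr11:100441759-100442058 (minus strand) for Nt5c3b. These genes were silent in 1A, 4J, 4J, 1B, 4J and 2F, in that order. The windows hold 25, 19, 11, 9, 5 and 3 CG dinucleotides in the same order. Tfpi and Nt5c3b, the CpG-poorest of the 6, each have 2 listed windows, and only the first is printed.
Tdrkh: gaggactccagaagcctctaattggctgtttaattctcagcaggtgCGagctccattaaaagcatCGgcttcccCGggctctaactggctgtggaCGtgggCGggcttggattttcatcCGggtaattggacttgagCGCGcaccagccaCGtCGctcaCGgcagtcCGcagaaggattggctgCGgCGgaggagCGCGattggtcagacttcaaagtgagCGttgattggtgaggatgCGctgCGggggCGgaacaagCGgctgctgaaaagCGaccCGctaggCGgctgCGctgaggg
Rab31: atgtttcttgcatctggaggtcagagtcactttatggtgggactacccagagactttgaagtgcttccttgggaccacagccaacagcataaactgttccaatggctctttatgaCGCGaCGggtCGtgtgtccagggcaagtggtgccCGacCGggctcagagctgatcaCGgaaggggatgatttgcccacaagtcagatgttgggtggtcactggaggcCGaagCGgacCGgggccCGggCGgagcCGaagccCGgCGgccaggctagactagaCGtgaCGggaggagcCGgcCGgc
Ivd: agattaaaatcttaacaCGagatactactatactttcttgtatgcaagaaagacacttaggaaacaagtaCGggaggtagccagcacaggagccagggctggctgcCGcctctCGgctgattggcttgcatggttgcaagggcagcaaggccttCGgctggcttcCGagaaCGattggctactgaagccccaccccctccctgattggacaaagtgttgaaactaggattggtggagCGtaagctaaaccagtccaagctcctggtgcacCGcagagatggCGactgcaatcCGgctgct
Dynlt3: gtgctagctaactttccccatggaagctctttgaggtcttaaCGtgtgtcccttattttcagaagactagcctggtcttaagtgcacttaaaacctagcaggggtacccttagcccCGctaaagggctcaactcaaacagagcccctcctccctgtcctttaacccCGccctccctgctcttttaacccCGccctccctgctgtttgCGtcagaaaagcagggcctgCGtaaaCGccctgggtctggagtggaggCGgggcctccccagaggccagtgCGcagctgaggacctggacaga
Tfpi: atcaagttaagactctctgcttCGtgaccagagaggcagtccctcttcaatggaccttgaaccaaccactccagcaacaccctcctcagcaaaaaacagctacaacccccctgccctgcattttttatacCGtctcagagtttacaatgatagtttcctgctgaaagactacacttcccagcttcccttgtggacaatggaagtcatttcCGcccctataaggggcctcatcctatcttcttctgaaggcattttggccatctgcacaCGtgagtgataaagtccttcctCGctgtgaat
Nt5c3b: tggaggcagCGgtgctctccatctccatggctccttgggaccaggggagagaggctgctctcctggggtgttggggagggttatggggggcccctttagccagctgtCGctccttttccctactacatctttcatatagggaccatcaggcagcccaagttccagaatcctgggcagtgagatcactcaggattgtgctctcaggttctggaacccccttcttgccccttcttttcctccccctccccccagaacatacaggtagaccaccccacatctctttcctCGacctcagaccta

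All 37 members were protein-coding genes. They lay on 15 chromosomes, 32 on autosomes and 5 on the X chromosome (13.5%, against 257 or 2.94% of the 8750 genes that could have met the rule and have an annotated chromosome). Without the 12 genes silent in 2D, 5 of 25 (20%) were on the X chromosome. The silent clone was a knockout for 16 members and a wildtype for 21. Clone 2D alone was the silent clone of 12 members, or 32.4%, and 4J of 8, or 21.6%. Clones 1B, 2F and 3I had 3 members each, 1A, 4K and 4L had 2 each, and 3H and 2E had 1 each. Clones 3G and 1C had none. In the silent clone 7 members had 0 counts, 13 had 1 to 3 counts and 17 had more, up to 52 counts. The median level over the other 11 clones ran from 6.87 CPM in Armcx3 to 289 CPM in Perp, with a median of 31.6 CPM over the members and 58.0 CPM over all genes that could have met the rule.

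**Figure D1:**
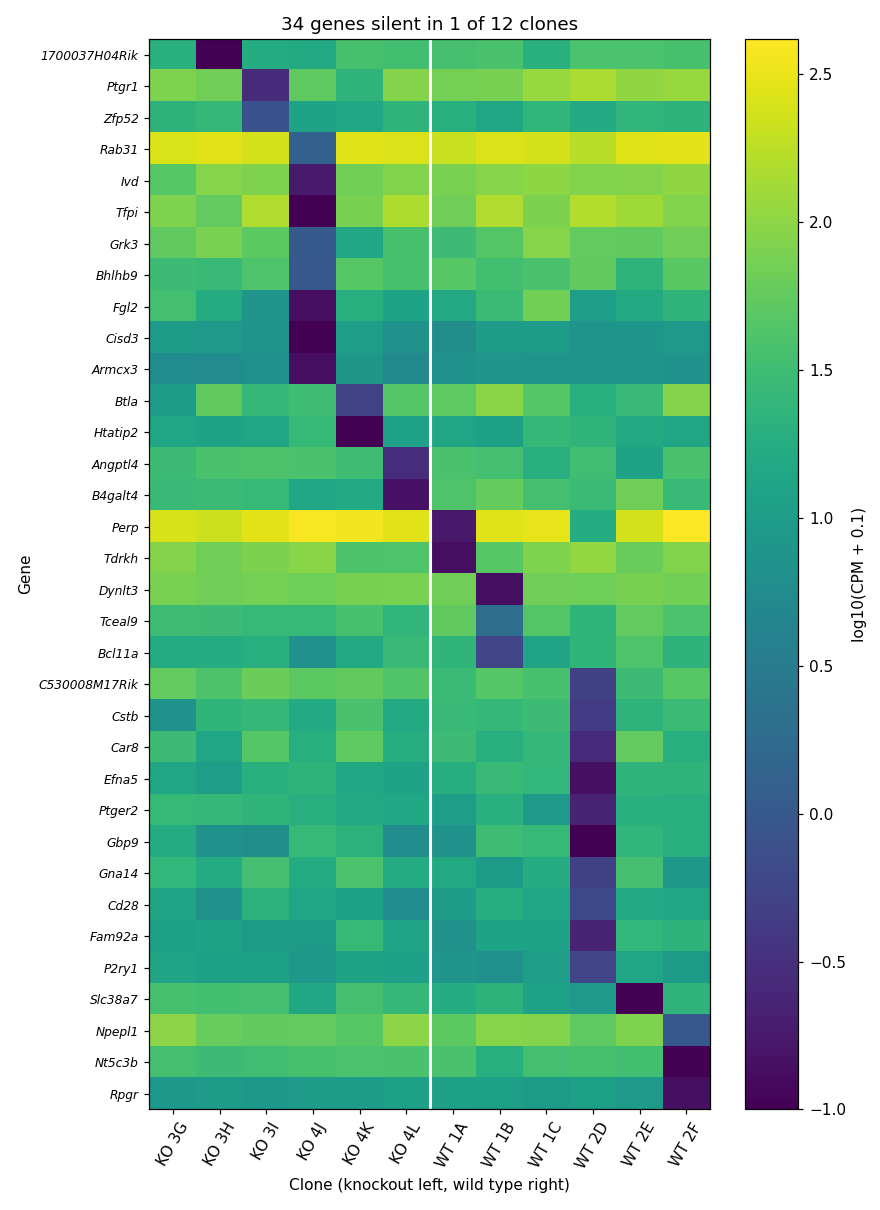
Levels of 34 of the 37 genes (rows) in the 6 knockout and 6 wildtype clones (columns), as log10(CPM + 0.1), ordered by silent clone. Each row has a single dark cell, and the dark cells of 10 genes fall in 2D and of 8 genes in 4J.

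**Figure D2:**
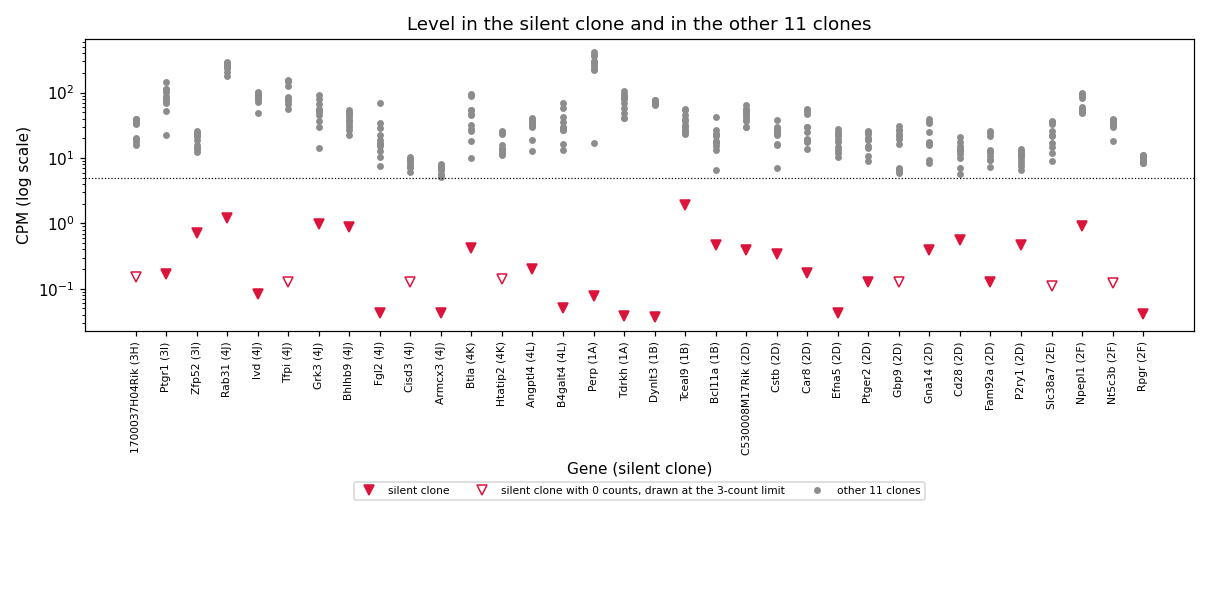
CPM on a log axis for each of the same 34 genes, in its silent clone (triangles) and in the other 11 clones (grey points), with the 5 CPM limit of the rule as a dotted line. Open triangles are the 7 genes with 0 counts, drawn at the level that 3 counts would give. On this axis Dynlt3 has the tightest group of other clones, with a highest over lowest level of 1.19, and Perp the widest, at 24.3.

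Apart from the silent clone, most members varied more between clones than the median gene that could have met the rule. Their coefficient of variation over the other 11 clones had a median of 33.9%. Over all genes that could have met the rule it was 8.99%, taken over all 12 clones and with no matching for level. Members had the lower median level, 31.6 against 58.0 CPM. Of the 37, 1 had a coefficient under 8.99%. The gene under it was Dynlt3, at 6.03%. Without the genes silent in 2D the median was 32.4%. Fgl2 had the highest coefficient, 75.9%. The silent clone and the lowest of the other 11 had the same title number in 6 of 37 members and the same genotype in 22 of 37. The rule has a fixed limit, and members near it fell least. Cd28 in 2D was at 9.84% of the lowest other clone, Tceal9 in 1B at 8.12%, P2ry1 in 2D at 7.32%, Bcl11a in 1B at 7.19% and Grk3 in 4J at 6.85%. Just outside the limit were Cd300a in 4J at 10.9%, Ltbr in 3H at 11.0%, Pycard in 1A at 11.4% and Rassf4 in 2F at 11.7%. Isyna1, which makes inositol phosphate, was at 9.20 CPM in 1C and at 149 CPM in the lowest other clone (6.19%). It stayed outside because 9.20 CPM is above the limit of 5 CPM.

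Clone 4J, a knockout, was silent for 8 genes with roles in membrane traffic, leucine breakdown, coagulation and mitochondria. Rab31, a small GTPase of the Rab5 group that moves cargo between the Golgi and endosomes, had 29 counts (1.23 CPM) in 4J, against 178, 264 and 295 CPM (lowest, median and highest) in the other 11 clones. It was 216-fold lower than the median of the others. Ivd, the isovaleryl-CoA dehydrogenase of leucine breakdown, had 2 counts (0.0845 CPM) in 4J, against 48.3, 86.5 and 103 CPM in the others. The ratio of the median to the 4J level was 1023, with a 95% counting interval of 283 to 8446. Among the other clones 3G was lowest for Ivd and 2D lowest for Rab31.

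Tfpi, the inhibitor of the tissue factor pathway that starts coagulation, had 0 counts in 4J, against 56.2, 85.9 and 159 CPM in the other clones. It was at least 677-fold lower than their median, with 3 counts taken as the upper limit for a count of 0. Cisd3, a mitochondrial iron-sulphur protein, also had 0 counts in 4J, against 6.14, 8.96 and 10.5 CPM. It was at least 70.6-fold lower. The lower expression of Cisd3 in all clones sets that smaller bound. Grk3, a kinase that desensitises G protein-coupled receptors, had 23 counts (0.972 CPM) in 4J, against 14.2, 53.6 and 90.6 CPM in the others. Fgl2, a fibrinogen-like protein with an immunoregulatory secreted form, had 1 count (0.0423 CPM) in 4J, against 7.64, 16.7 and 70.2 CPM. Its other clones were widely spread, with 1C far above the rest.

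The remaining pair in 4J were X-linked relatives. Bhlhb9 and Armcx3 belong to the GASP/ARMCX family of armadillo-repeat proteins clustered on the X chromosome, and Armcx3 sits on the outer mitochondrial membrane. Bhlhb9 had 21 counts (0.888 CPM) in 4J, against 22.6, 37.9 and 53.6 CPM in the other clones. Armcx3 had 1 count (0.0423 CPM) in 4J, against 5.07, 6.87 and 8.17 CPM. Along the X chromosome 4 tested genes lie between them, so the silent stretch was not unbroken. Gprasp1 of the same family, which overlaps Bhlhb9 on the same strand in the annotation, had 485 counts in 4J, against a median of 468 counts in the other 11 clones. Armcx6 was at 0.296 CPM in 4J, against 1.32, 2.16 and 3.55 CPM in the others (log2 fold change −2.57 ± 0.62, SE, edgeR adjusted p = 0.551).

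In the edgeR model with a term for 4J beside genotype, 0.118% of 11819 tested genes were called at an adjusted p under 0.05. Of the 74 neighbours of the 4J members, taken as the 5 nearest tested non-member genes on each side, 1 was called and 65 lay within 0.5 log2 of the other clones. The called gene was Ppp4r1, a phosphatase regulatory subunit next to Rab31. It was higher, at 128 CPM in 4J, against 88.3, 93.4 and 104 CPM in the other clones (log2 fold change 0.33 ± 0.05, SE, edgeR adjusted p = 0.0204). The call was lost without 3G (adjusted p = 0.0580), without 3I (0.0559) and with no filter on low counts (0.0950). Gsap, next to Fgl2, had 0 counts in 4J and 0.382 to 3.34 CPM elsewhere, and did not pass (edgeR adjusted p = 0.922).

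Clone 2D, a wildtype, was silent for 12 autosomal genes, among them several cell-surface and signalling genes. Efna5, a ligand of Eph receptors, had 1 count (0.0429 CPM) in 2D, against 10.5, 19.8 and 28.0 CPM in the other clones. The ratio of their median to the 2D level was 460, with a 95% counting interval of 82.6 to 18185. The rule itself keeps the other clones well above 2D, and the lowest of them was 3H.

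Receptors and their transducers were also among the 2D members. Ptger2, the EP2 receptor for prostaglandin E2, had 3 counts (0.129 CPM) in 2D, against 8.92, 19.4 and 26.2 CPM in the others. Gna14, an alpha subunit of the Gq class, had 9 counts (0.386 CPM), against 8.34, 17.0 and 39.7 CPM. P2ry1, an ADP receptor, had 11 counts (0.472 CPM), against 6.45, 11.0 and 13.9 CPM. Cd28, the costimulatory receptor known from T cells, had 13 counts (0.558 CPM), against 5.67, 13.5 and 20.7 CPM. These receptors had low levels in all clones, and Cd28 met the rule narrowly.

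Other 2D members have enzyme, inhibitor or structural roles. Gbp9, an interferon-inducible guanylate-binding protein, had 0 counts in 2D, against 5.83, 19.3 and 31.4 CPM in the others, and was at least 150-fold lower than their median. Cstb, an inhibitor of lysosomal cathepsins, had 8 counts (0.344 CPM) in 2D, against 7.06, 25.5 and 38.2 CPM. Car8, a carbonic anhydrase relative without the enzyme activity, had 4 counts (0.172 CPM), against 13.9, 25.3 and 56.8 CPM. Fam92a, a protein of cilium formation, was at 0.129 CPM in 2D and C530008M17Rik at 0.386 CPM, against medians of 12.4 and 46.0 CPM in the others. Over the 12 genes, 1A and 4L were each below the median of the other 11 clones in 10, with median differences of −0.55 and −0.52 log2(CPM + 1). Mature neutrophil markers summed to 97.1 CPM in 1A and 133 CPM in 4L. Clones 3G and 4J, with sums of 80.3 and 75.2 CPM, were below the median of the others in 6 and 5 of the 12 genes, with median differences of 0.05 and 0. Clone 3H, with a sum of 64.1 CPM, was below that median in 9. Clones 1B, 2F, 3I, 1C, 4K and 2E had sums of 42.9, 35.7, 24.4, 23.0, 12.1 and 7.86 CPM. They were below that median in 3, 5, 2, 5, 3 and 2 genes, in that order. A link between these sums and the gene levels was not tested. Clone 2D was in turn the lowest of the other 11 for 5 members that were silent elsewhere (Perp, Dynlt3, Tceal9, Slc38a7 and Rab31). Over all members 1A, 3G, 4J, 4K and 4L were each the lowest of the other 11 for 4, so this count was not particular to 2D.

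In the model with a term for 2D, 2.58% of genes were called, the largest share among the 10 silent clones, and 3 of the 120 neighbours of its members were called. Those named here lie near Fam92a. Decr1, a mitochondrial enzyme that degrades unsaturated fatty acids, was at 20.1 CPM in 2D, against 29.0, 63.7 and 71.8 CPM in the others (log2 fold change −1.72 ± 0.37, SE, edgeR adjusted p = 0.0405). Otud6b, a deubiquitinase on the same side, was at 93.9 CPM in 2D, against 67.3, 71.1 and 81.4 CPM (0.37 ± 0.08, adjusted p = 0.0478). Both calls were close to the threshold and were lost, with adjusted p up to 0.0999, under 9 of 15 alternatives for Decr1 and 10 for Otud6b. For Decr1 these were no filter on low counts (0.0559) and the fits without 1B, 1C, 2E, 2F, 3G, 3H, 3I or 4L, with adjusted p between 0.0536 and 0.0727. For Otud6b they were no filter (0.0999) and the same fits together with that without 4J, with values between 0.0549 and 0.0905. Decr1 in 4J was also low, at 29.0 CPM, and without 4J its adjusted p was 0.000175.

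Gbp9 has relatives on both sides, and none of its relatives tested in 2D passed the test. Gbp4 had 0 counts in 2D, against 3.77, 30.2 and 69.2 CPM in the other clones (edgeR adjusted p = 0.0833). Gbp8 also had 0 counts, against 1.61, 12.1 and 21.2 CPM (adjusted p = 0.0714). Both overlap Gbp9 on the same strand in the annotation. Gbp7 was at 13.1 CPM in 2D, against 9.89, 18.4 and 28.6 CPM, Gbp3 at 0.902 CPM, against 0.767, 1.63 and 4.20 CPM, and Gbp2 at 0.129 CPM, against 0.153, 1.55 and 3.43 CPM (adjusted p = 0.404, 0.472 and 0.187). Clones 1A, 3H, 3I and 4L were low for Gbp9, Gbp4 and Gbp8 as well, with Gbp4 at 4.95, 5.46, 9.29 and 3.77 CPM. Beside Cd28, Icos, another costimulatory receptor, had 10 counts (0.429 CPM) in 2D, against 1.92, 8.48 and 23.9 CPM (adjusted p = 0.0761).

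Clone 1B, a wildtype, was silent for Dynlt3, Tceal9 and Bcl11a. Dynlt3, a light chain of the motor protein dynein on the X chromosome, had 1 count (0.0365 CPM) in 1B, against 65.1, 70.8 and 77.7 CPM in the other clones. The ratio of their median to the 1B level was 1942, with a 95% counting interval of 349 to 76697. The 11 other clones kept within a narrow band. Tceal9, an X-linked gene named for its likeness to transcription elongation factors, had 52 counts (1.90 CPM) in 1B, against 23.4, 31.6 and 56.9 CPM. Bcl11a, a zinc finger repressor of fetal globin genes that is also needed for B cells, had 13 counts (0.474 CPM) in 1B, against 6.59, 18.3 and 42.0 CPM.

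The 1B model called 3 genes, or 0.0254% of those tested, and these were Dynlt3, Tceal9 and Bex3. Dynlt3 and Tceal9 were chosen by the rule for their fall in 1B, so their calls add no support. Bex3 is the X-linked neighbour of Tceal9 from the related BEX family and was not a member. It had 48 counts (1.75 CPM) in 1B, against 10.9, 22.3 and 45.1 CPM in the other clones (log2 fold change −4.24 ± 0.52, SE, edgeR adjusted p = 0.0239). It was the one called gene among the 30 neighbours of the 1B members. The call was lost when 1C, 2E, 2F, 3H, 3I or 4J was left out, with adjusted p between 0.0556 and 0.0671. On the other side Tceal9 borders Bhlhb9, the gene silent in 4J, with no tested gene between them. Tceal9 was in its usual range in 4J and Bhlhb9 in its usual range in 1B, since each had just 1 silent clone.

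Clone 1A, a wildtype, was silent for Perp and Tdrkh. Perp, a p53 target with roles in cell adhesion and apoptosis, had 2 counts (0.0767 CPM) in 1A, against 17.2, 289 and 417 CPM in the other clones. The ratio of the median to the 1A level was 3769 (95% counting interval 1043 to 31124). Clone 2D was the next lowest at 17.2 CPM and the remaining 10 were far above it. Tdrkh, a Tudor and KH domain protein known from piRNA processing in germ cells, had 1 count (0.0384 CPM) in 1A, against 41.0, 80.0 and 107 CPM.

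The 1A model called 0.0508% of genes, and 1 of 20 neighbours. Oaz3, an ornithine decarboxylase antizyme known from the testis, had 0 counts in 1A, against 0.892, 1.58 and 2.32 CPM in the others (edgeR adjusted p = 0.0266). It overlaps Tdrkh on the opposite strand. Strand was not used in the counting, so reads from the 2 genes cannot be told apart where they overlap. Without 1C, 2F or 3I the adjusted p of Oaz3 was between 0.0581 and 0.0599. Next to Perp, Arfgef3 had 0 counts in 1A, but also in 1C and 2D, and 1.57 to 22.6 CPM in the remaining 9 clones (adjusted p = 0.754).

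Clone 2F, a wildtype, was silent for Npepl1, Nt5c3b and Rpgr. Npepl1, named for its likeness to aminopeptidases, had 22 counts (0.908 CPM) in 2F, against 48.2, 60.7 and 97.4 CPM in the other clones. Nt5c3b, a nucleotidase that acts on the methylated nucleotide of mRNA caps, had 0 counts in 2F, against 18.4, 35.8 and 39.4 CPM, and was at least 289-fold lower than the median. Rpgr, an X-linked protein of the cilium base that is mutated in retinitis pigmentosa, had 1 count (0.0413 CPM) in 2F, against 8.31, 9.93 and 11.2 CPM. Rpgr and Dynlt3, the gene silent in 1B, have 1 tested gene between them, Sytl5. Sytl5 had 0 counts in 2F and 3 counts (0.109 CPM) in 1B, but also 0 counts in 4J and 1 count in 2D, and was at most 1.71 CPM in any clone. The 2F model called 0.0508% of genes and 0 of 30 neighbours.

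The knockout clones 3I, 4K, 4L and 3H were silent for 8 genes. In 3I, Ptgr1, which inactivates prostaglandins and leukotriene B4, had 4 counts (0.170 CPM), against 22.7, 82.3 and 146 CPM in the other clones. Zfp52, a zinc finger protein, had 17 counts (0.721 CPM) in 3I, against 12.6, 21.5 and 25.8 CPM. Its neighbour Zfp948, also a zinc finger gene, had 2 counts (0.0848 CPM) in 3I, against 0.798, 1.34 and 1.82 CPM (log2 fold change −3.70 ± 0.58, SE, edgeR adjusted p = 0.118).

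In 4K, Btla, an inhibitory receptor of lymphocytes, had 9 counts (0.423 CPM), against 9.96, 45.9 and 95.2 CPM in the other clones. Htatip2, an oxidoreductase-like protein, had 0 counts in 4K, against 11.2, 13.7 and 26.1 CPM, at least 97.0-fold lower than the median. In 4L, Angptl4, an inhibitor of lipoprotein lipase, had 4 counts (0.201 CPM), against 12.6, 34.5 and 41.0 CPM. B4galt4, a galactosyltransferase, had 1 count (0.0502 CPM) in 4L, against 13.1, 28.8 and 69.1 CPM. In 3H, 1700037H04Rik had 0 counts, against 15.6, 35.2 and 39.8 CPM, at least 232-fold lower. In the wildtype clone 2E, Slc38a7, a lysosomal glutamine transporter, had 0 counts, against 8.85, 22.5 and 36.6 CPM, at least 201-fold lower.

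The models for these clones called 0.0169% of genes in 3I, 0.0169% in 4K, 0.0338% in 4L, 0.0169% in 3H and 0.0761% in 2E. Of their neighbours 0 were called, from 30 in 3I, 20 each in 4K and 4L and 10 each in 3H and 2E. The smallest adjusted p among them was 0.118 for Zfp948 in 3I and 0.666 for Got2, next to Slc38a7, in 2E, and was 0.920 or more in 4K, 4L and 3H. The 7 members with the lowest medians, namely P2ry1, Fam92a, Cd28, Htatip2, Cisd3, Armcx3 and Rpgr, were named after their values were seen.

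Across the 10 silent clones 364 neighbours were read, and 6 were called by edgeR (4 lower and 2 higher in the silent clone), while 56 passed 0.05 before adjustment and DESeq2 called 25. The share called over all genes and the 10 models was 0.299%. Without the neighbours of genes silent in 2D, 3 of 244 were called. Most genes called over the 10 models were called in 2D, so the pooled share is too high for the neighbours outside it. The lower share outside 2D, and the share before adjustment, are given with the relatives below. No share over all genes is given for DESeq2. A total of 291 neighbours, or 79.9%, lay within 0.5 log2 of the other clones, against 85.6% of all tested genes. An exact permutation test of 1 clone against 11 cannot give a p below 0.0833, so the calls rest on the spread shared across clones in the model. The nearest tested gene on each side was the one that most often fell. Of these 74 genes, 15 (20.3%) were lower by more than 3 log2 in the silent clone, against 5 of 296 (1.69%) at places 2 to 5 and 1.00% of all tested genes. Among genes with a median of at least 1 CPM in the other clones the shares were 11 of 65 (16.9%), 4 of 270 (1.48%) and 0.765%. These shares carry no test, and the fitted changes of genes with 0 counts are no bounds.

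The 15 low nearest neighbours stood beside 14 of the members. Outside 2D there were 10 of 50, and in 2D there were 5 of 24. Of the 15, 3 overlap the silent gene in the annotation (Oaz3, Gbp4 and Gbp8), 8 are on the same strand as the silent gene and 7 on the other, and 11 lie on its 3′ side. In 10 of the 15 the silent clone was the one clone at 10% or less of the median of the others. In the remaining 5 (Arfgef3, Rbm12b1, Sytl5, Myo18b and Armcx2) other clones were as low. Armcx2, beside Armcx3, had 19 counts (0.803 CPM) in 4J, but just 2, 1 and 2 counts in 1C, 2D and 3I. For 16 members both nearest neighbours were within 0.5 log2 of the other clones. A single nearest neighbour was higher by more than 1 log2, Nav2 beside Htatip2, at 20.6 CPM in 4K, against 0.129, 1.49 and 22.8 CPM in the others (edgeR adjusted p = 0.920).

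**Figure D3:**
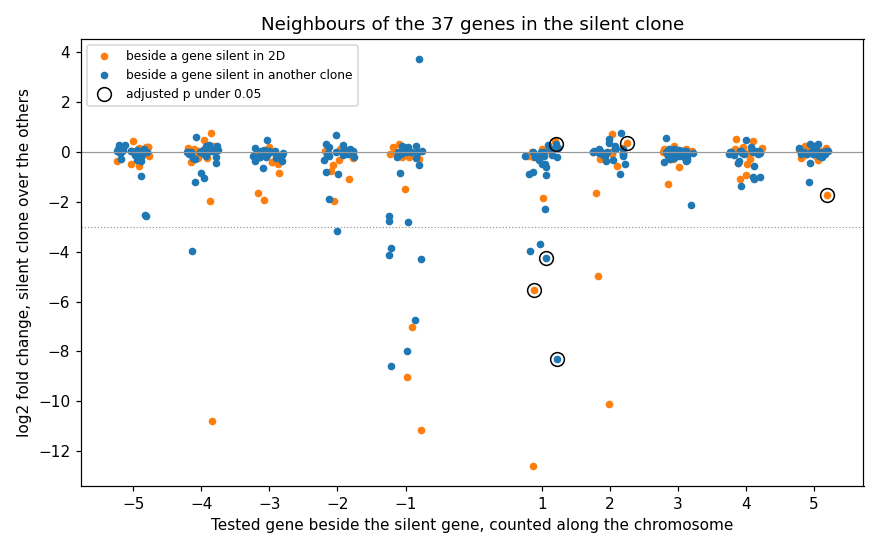
Log2 fold change in the silent clone over the other clones for the 5 nearest tested genes on each side of the 37 genes, by their place along the chromosome. Points below the dotted line at −3 are mostly at the nearest place on either side, 15 of 20 with Armcx2 drawn at both of its places, and circled points are the 6 called genes.

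Members lay apart from each other in most cases. Besides Armcx3 and Bhlhb9 in 4J, the closest members that shared a silent clone were Car8 and Fam92a in 2D, with 20 tested genes between them. Close members with different silent clones were Efna5 (2D) and Rab31 (4J) with 5 tested genes between them and B4galt4 (4L) and Btla (4K) with 19.

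The genotype of a clone was not part of the rule, so knockout and wildtype could be compared in the 11 clones left after each gene's silent clone was set aside. By edgeR's quasi-likelihood test 0 of 37 members were called, 6 passed 0.05 before adjustment, and DESeq2 called 3. The background share called over all genes in these fits was 5.43% without 3H, 4.78% without 3I, 5.77% without 4J, 5.93% without 4K and 5.91% without 4L. It was 5.47% without 1A, 5.11% without 1B, 8.56% without 2D, 8.66% without 2E and 5.94% without 2F. These shares are edgeR calls after adjustment. No share over all genes is given for the DESeq2 calls or for p before adjustment, so those counts are not results about the members. The log2 fold change was positive in 13 members and negative in 24, with a median of −0.15 and a range from −0.93 to 0.87, and 25 lay within 0.5.

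Slc38a7 averaged 30.1 ± 8.57 CPM in knockout clones and 16.4 ± 6.01 CPM in wildtype clones (SD, n = 6 and 5), with a log2 fold change of 0.87 ± 0.29 (SE, edgeR adjusted p = 0.0868, DESeq2 adjusted p = 0.0213). B4galt4 averaged 22.7 ± 7.42 CPM in knockout clones and 43.4 ± 16.7 CPM in wildtype clones (n = 5 and 6), with −0.93 ± 0.29 (edgeR 0.0887, DESeq2 0.0172). Efna5 averaged 15.5 ± 4.60 CPM in knockout clones and 23.1 ± 3.79 CPM in wildtype clones (n = 6 and 5), with −0.57 ± 0.20 (edgeR 0.0965, DESeq2 0.0409). Leaving out 4J brought Slc38a7 to an edgeR adjusted p of 0.0379 and Efna5 to 0.0402. For Tceal9 the knockout mean was 29.2 ± 4.74 CPM and the wildtype mean 43.7 ± 13.4 CPM (n = 6 and 5), with an adjusted p of 0.119 that became 0.0151 without 2D. Dynlt3 had the smallest error, with 72.9 ± 4.61 CPM in knockout clones and 69.4 ± 3.36 CPM in wildtype clones (n = 6 and 5), a log2 fold change of 0.07 ± 0.05 and an adjusted p of 0.442.

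With all 12 clones 0 members were called by edgeR or DESeq2 and 0 had an unadjusted p under 0.05, where 7.94% of all genes were called. The rule put a near-silent clone in 1 genotype of every member, which widened the spread there. For Dynlt3 the SE was 0.67 with all 12 clones and 0.05 without 1B. These counts of 0 were therefore largely set by the rule and are no result about genotype. A single silent clone lowered its own genotype and so moved each log2 fold change by 0.24 to 0.27, and the sign differed between the 2 fits in 7 members. Rab31, silent in a knockout, was at −0.13 with all clones and at 0.13 without 4J.

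**Figure D4:**
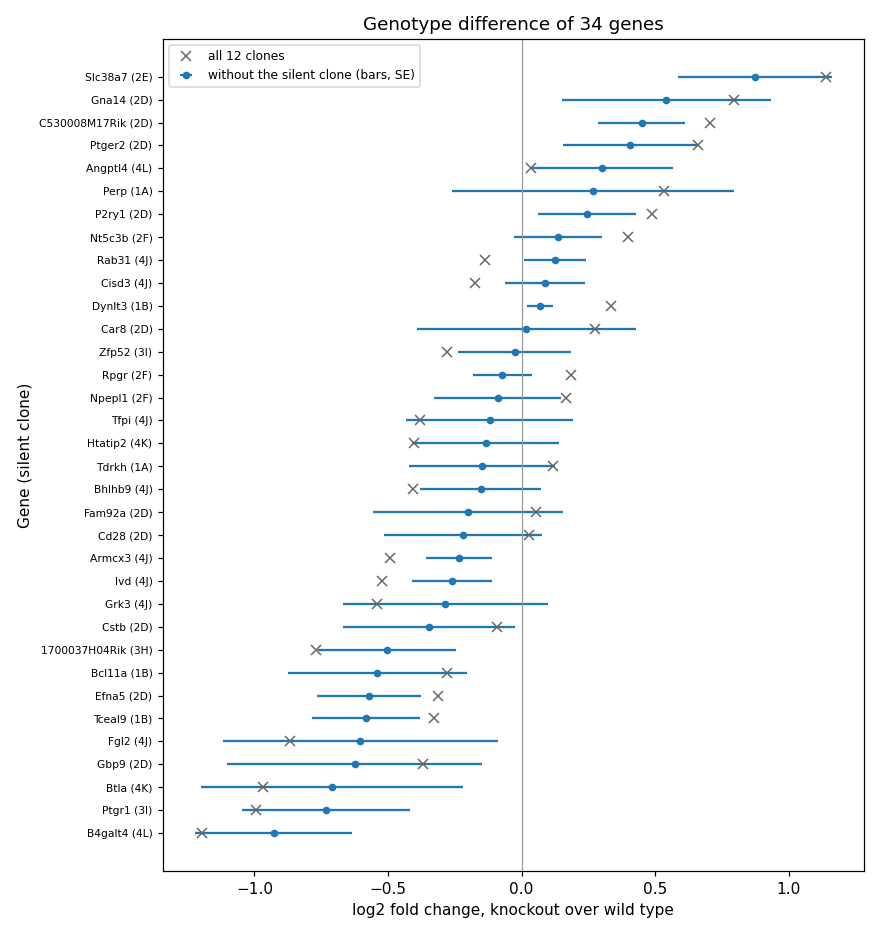
Log2 fold change of knockout over wildtype for 34 of the 37 genes, without the silent clone (points, with the SE as bars) and with all 12 clones (crosses). Values without the silent clone run from −0.93 in B4galt4 to 0.87 in Slc38a7, and each cross is displaced by 0.24 to 0.27.

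Paralogs, partners and pathway genes of the members were read in the silent clone from lists written after the members were known. Every relative called below is also a neighbour of its member and is already counted among the called neighbours. Of 105 such genes tested, 2 were called, both lower and Bex3 among them, 17 had an unadjusted p under 0.05, 6 were higher by more than 1 log2, and the median log2 fold change was −0.06. The called share of all genes in the 10 models was 0.299%, and 5.80% passed 0.05 before adjustment. Of the relatives, 30 were read in 2D, where 1 was called and 10 had an unadjusted p under 0.05, with a median of −0.60, against 2.58% of all genes called and 24.5% with an unadjusted p under 0.05 in 2D. In the other 9 clones 1 of 75 was called and 7 had an unadjusted p under 0.05, with a median of −0.02, against 0.0451% and 3.72% of all genes. For Rab31, Ivd and Dynlt3 no listed relative was called. Dbt, a subunit of the complex that acts before Ivd in leucine breakdown, was at 24.6 CPM in 4J, against a median of 44.2 CPM in the others (log2 fold change −0.85 ± 0.15, SE, edgeR adjusted p = 0.0870). In 2D, Ptger4 was at 2.23 CPM beside the silent Ptger2, against a median of 9.12 CPM in the others, and did not pass (adjusted p = 0.114). Stfa1, a cystatin of mature neutrophils, was at 100.1 CPM in 2D beside the silent Cstb, against a median of 0.910 CPM in the others (adjusted p = 0.135).

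Membership was also counted in gene lists drawn up mostly from symbol prefixes, which do not hold every gene of a class. Bcl11a, Dynlt3, Perp and Tdrkh, for example, are in none of them. Zfp52 was a member among 230 genes with zinc finger symbols (0.435%), close to the 0.419% of all genes that could have met the rule. Of 167 genes on the other lists (imprinted, detoxification, histocompatibility and lectin receptors, cytokines, cytoskeleton and adhesion, granule and germline), 0 were members. At the overall share a count of 0 or 1 is not a result about these lists.

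Promoters of the members were poorer in CpG than those of other genes, as a description with no test. RefSeq windows were found for 24 of the 37 members and for 7058 other genes that could have met the rule. The ratio of observed to expected CpG had a median of 0.584 in members and 0.807 in the others, and the median number of CG dinucleotides was 11.5 in members and 22 in the others. A ratio over 0.6, a usual limit for CpG-rich promoters, was found in 12 of 24 members (50.0%), against 80.4% of the others and 75.7% of the 2099 others whose level did not exceed the median of the members. Without the genes silent in 2D the median ratio was 0.584 and 10 of 20 windows (50.0%) were over 0.6. Members ran from 0.125 in Nt5c3b to 1.10 in Efna5. The GC content had a median of 57.7% in members and 61.3% in the others. The letters TATAA, searched on both strands, were in 3 member windows (12.5%), those of Cisd3, Ptgr1 and Tfpi, and in 11.4% of the others. Silent genes thus had CpG-rich windows such as that of Tdrkh (25 CG dinucleotides) as well as CpG-poor ones such as that of Nt5c3b (3). Nt5c3b has 2 listed windows and only the first was read. Which start is used in these cells was not tested.

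**Figure D5:**
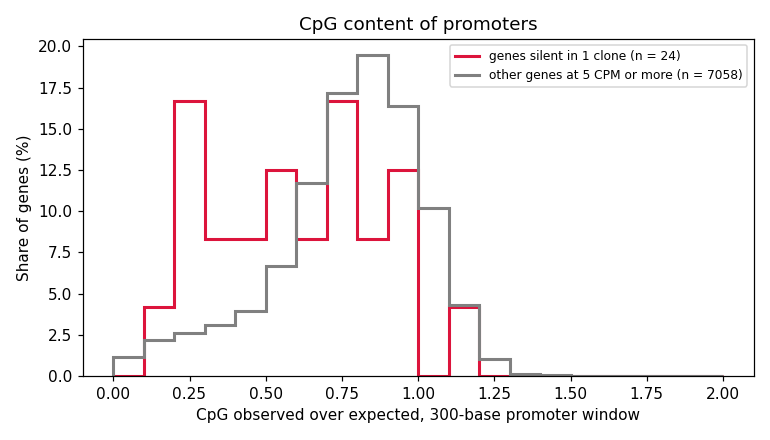
Share of genes (%) by the ratio of observed to expected CpG in the promoter window, for 24 genes silent in 1 clone (red) and 7058 other genes (grey). Steps show shares in bins of equal width, and 12 of the 24 lie above 0.6, against 80.4% of the others.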

How the data were processed

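RNA sequencing counts of 12 clones were used, 6 knockout and 6 wildtype. The authors deposited raw read counts for each Ensembl gene, made with STAR, HTSeq and edgeR on build mm9, per the submitters' processing notes, with no versions given. The deposited file names state that strand was not used in counting. The last lines of each file, HTSeq totals that name no gene, were left out. Of all records, 43.6% ± 0.611 (SD, n = 12) were reads aligned to more than 1 place, so near-identical genes are undercounted. Of 37583 gene identifiers, 32860 were matched to a symbol and chromosome in GENCODE M21, which is on a later build than the counts and so gave only names, chromosomes, strands, overlaps and gene order. Promoter windows came from RefSeq on GRCm38.p6. Members were matched to it by symbol and gene identifier, and the first listed window was used where a gene had more than 1.

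CPM was the count over the sum of gene counts. Tests were run in R 4.3.3 with edgeR 4.0.16 (quasi-likelihood F-test), with TMM normalization, filterByExpr by genotype, Benjamini-Hochberg adjustment over all genes tested and a threshold of 0.05. DESeq2 1.42.0 was an alternative. Genotype was fitted over 12 clones, and over 11 without the silent clone of each gene. Neighbours were read from models with genotype and a term for the silent clone, which assume that a lone clone varies like the others. The shares of genes called in these models include members, whose fall was set by the rule. The SE was the log2 fold change over the square root of F. Both kinds of fit were tested on simulated data with known changes. The rule named all members if there were 30 or fewer and otherwise the 30 with the highest median CPM, plus the neighbour with the smallest adjusted p for each silent clone and the 5 genes just outside the threshold. The members and lists were chosen with earlier results of these data known. Counting intervals are 95% Poisson intervals with a lower and an upper end. For a count of 0 a fixed upper limit of 3 counts (0.109 to 0.158 CPM) was used. It is an upper limit alone and lies below the upper end that such an interval would have. Both cover counting error only. Nothing in the labels says that clones were cultured on separate occasions, so p-values measure the spread between these clones. Of the 37 members, 3 are counted in every total but not reported singly here or drawn in the figures by gene, and neither is 1 called neighbour.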

Additional observations from a re-analysis of the deposited data

Results flagged for a closer look

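In groups of 4 to 10 clones, a clone was picked out where its gap to the nearest other clone was large against the range of its group by Dixon's test at the 95% level. The silent clones themselves were left out, since the rule set them. Chance picks out about 1 in 20 groups, and 9 of 86 groups were picked here. Among groups of members 5 of 74 were picked, close to that chance share, and the rest were among the marker sums. Among members, Fam92a was at 26.3 CPM in knockout clone 4K, against 9.21 to 13.1 CPM in the other knockout clones. Htatip2 was at 26.1 CPM in knockout clone 4J, against 11.6 to 13.7 CPM in the others. Nt5c3b was at 18.4 CPM in wildtype clone 1B, against 33.0 to 38.6 CPM in the other wildtype clones. 1700037H04Rik was at 19.9 CPM in wildtype clone 1C, against 35.2 to 39.8 CPM, and Fgl2 at 70.2 CPM in the same clone, against 10.3 to 28.9 CPM.

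Among marker sums, mature neutrophil markers were at 1433 CPM in wildtype clone 2D, against 7.86 to 97.1 CPM in the other wildtype clones, and lymphoid markers at 62.3 CPM, against 5.33 to 25.1 CPM. Fetal hepatocyte markers were at 141 CPM in knockout clone 3G, which is silent for no member, against 0 to 1.95 CPM in the other knockout clones. Most of the 3G sum was Alb, at 123 CPM, with Ttr at 10.4 CPM and Apoa1 at 8.12 CPM. Afp, also on the list, did not follow, at 0.105 CPM in 3G and 1.40 CPM in 3I. The summed fetal hepatocyte markers were at 0.844 CPM in wildtype clone 1A, against 0.137 to 0.292 CPM.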

How the results depend on the processing

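The 37 members became 23 with a floor of 10 CPM, 45 with 3 CPM, 50 with a fall to 20% of the lowest other clone, 31 with 5% and 37 with TMM-scaled CPM. Applied to 11 clones, a setting added after seeing the data, the rule gave 29 (without 2D) to 42 (without 1A). Without their silent clone 0 members were called between genotypes by edgeR and 3 by DESeq2 (Slc38a7, B4galt4 and Efna5). Leaving out each further clone gave 0 to 2 calls, 2 without 4J and 1 without 2D. With all 12 clones every alternative gave 0, a count largely set by the silent clone within 1 of the groups. The 6 called neighbours became 25 with DESeq2, 3 with no filter on low counts and 6 with DESeq2 size factors. Leaving out each clone gave 1 to 25, with 25 without 1A, 1 without 1C, 2F or 3I, 2 without 2E or 3G, and 3 without 1B, 3H or 4J. With 2 neighbours on each side 5 of 148 were called, and with 10 there were 7 of 724. The share called over all genes is not given for DESeq2, for DESeq2 size factors or for no filter. It is also not given for neighbour fits with a clone left out or genotype fits with a further clone left out. The changes in these counts are therefore not results about the neighbours or members. The causes were not tested. A clone left out of a neighbour fit was given a term of its own. No paired analysis was possible because the 2 genotypes share no replicate number. Low counts limit the depth of a fall that can be shown, and members near 5 CPM have small bounds.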
